A study of Mus musculus with 12 samples.

Results

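Cells depleted of BAF60c were compared with cells depleted of BAF60b, without the scrambled control, in the mouse myoblast line C2C12. The comparison used the 2 arrays labelled siBAF60c and the 2 labelled siBAF60b, 4 of the 12 Illumina BeadChip arrays of the series, and covered all 10346 genes that could be tested. Both groups were C2C12 cells, an established line that divides in serum and fuses into multinucleated myotubes when serum is withdrawn. Growing cells in 15% serum received a pool of siRNA oligonucleotides against Baf60c or against Baf60b, were moved to ITS differentiation medium 36 h later, and gave total RNA after a further 18 h, of which 500 ng was labelled. The siScramble group, given a scrambled siRNA and treated in the same way, also had 2 arrays, and its values stand beside the comparison as a reference. No group received both BAF60 siRNAs. Each gene was targeted with 1 pool, so that effects of a pool on other transcripts cannot be told apart from loss of the target.

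BAF60 proteins are accessory subunits of the SWI/SNF (BAF) chromatin remodelling complexes, which use the ATPase BRG1 or BRM to move and evict nucleosomes. A complex holds a BAF60 subunit that bridges its core to transcription factors. The paralogs BAF60a, BAF60b and BAF60c are encoded by Smarcd1, Smarcd2 and Smarcd3. BAF60c is known from heart and skeletal muscle, where it binds the myogenic factor MyoD, while BAF60b is known from blood cells, where it is needed for granulocyte formation. MyoD binds the E-box, the DNA letters CANNTG.

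The array identifiers in the labels placed replicate 1 of both knockdowns and of siScramble on 1 BeadChip and replicate 2 of all 3 on another, so the comparison could be made within each chip. The labels do not say that replicates were separate cultures, so the p-values reflect only how these samples varied, and that variation may be technical. On the 4 arrays 12802 to 15025 of 45281 probes were detected (28.27% to 33.18%). The siBAF60c arrays correlated at 0.979 and the siBAF60b arrays at 0.985. Across chips, the siBAF60c arrays differed by over 1 on the log2 scale in 440 genes and the siBAF60b arrays in 206. Between the knockdowns 531 genes differed by that much on the first chip and 159 on the second. Myoblast markers were present in both knockdowns, with 8 or 9 of 10 tested markers detected on each array.

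Levels below are normalized log2 intensities of the gene's brightest probe, and differences are siBAF60c minus siBAF60b, so that a positive value is higher in siBAF60c. No gene passed a Benjamini-Hochberg adjusted p of 0.05 in the limma fit (0 of 10346, 0%). The lowest adjusted p was 0.0508, and 514 genes (4.97%) had an unadjusted p under 0.05, where 517 would have one if no gene differed. Of these 261 (2.52%) stood higher in siBAF60c and 253 (2.45%) lower. This fit has no term for the chip. The share was 6.75% with the BeadChip as a block over 12 arrays, and 11.8% with the replicate number as a block over the 4 arrays. The 2 arrays of one knockdown lay wholly above those of the other in 3696 genes (35.7%), with 1831 (17.7%) higher and 1865 (18.0%) lower in siBAF60c. Differences over 1 were found in 128 genes (1.24%), 73 higher and 55 lower. Across genes the median SE was 0.311, and the smallest p that an exact permutation of 2 arrays against 2 can give is 0.333. The differences on the first chip correlated with those on the second at 0.291 across genes, and 6110 genes (59.1%) had the same sign on both. The genes below are therefore described by their values, and none is called changed.

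**Figure D1:**
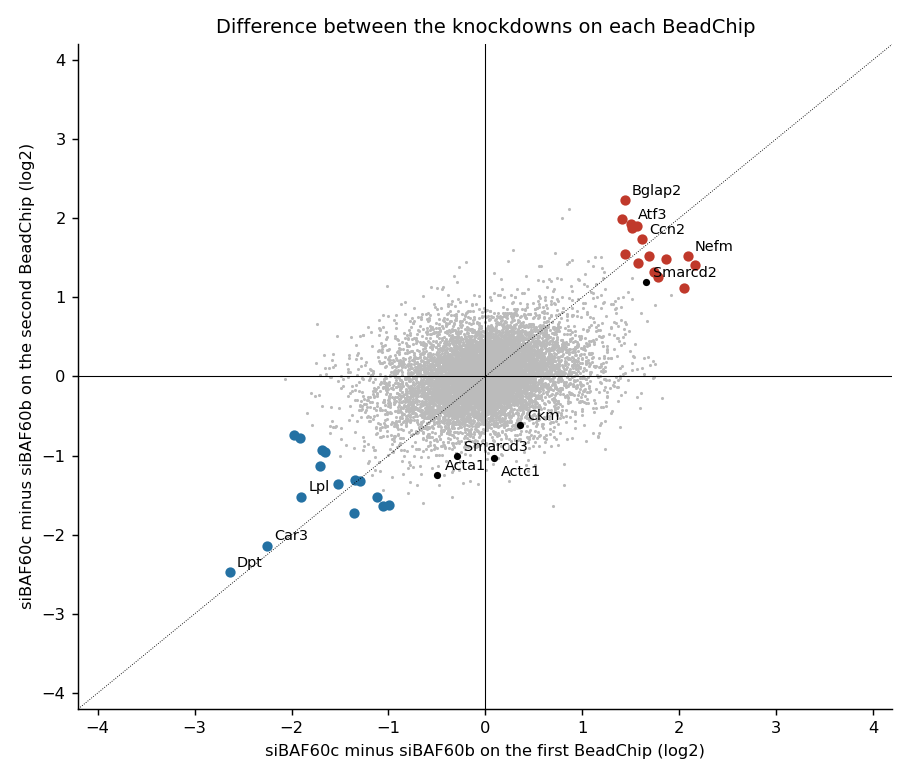
Each point is a gene, placed by its log2 difference, siBAF60c minus siBAF60b, on the first BeadChip (horizontal axis) and on the second (vertical axis). Red and blue points are the 15 genes with the largest differences in each direction that had an unadjusted p under 0.05, black points are named reference genes, and the dotted line marks equal differences. Dpt and Car3 lie near the line at the lower left, while Actc1 and Ckm lie on opposite sides of 0 on the 2 axes.

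Each paralog stood lower where it had been targeted, and by unequal amounts. Smarcd2 (chr11:106263171-106272998, GRCm38.p6), which encodes BAF60b, read 9.75 and 9.53 in siBAF60c, 8.10 and 8.34 in siBAF60b, and 9.83 and 9.71 in siScramble. Both siBAF60b arrays were low and the siBAF60c arrays were close to siScramble. The difference was 1.42 (SE 0.39, 95% confidence interval 0.59 to 2.26, unadjusted p = 0.00257, adjusted p = 0.402). Smarcd3 (chr5:24592622-24624456), which encodes BAF60c, read 8.18 and 7.56 in siBAF60c, 8.47 and 8.57 in siBAF60b, and 9.10 and 8.51 in siScramble. The siBAF60c arrays lay below the siBAF60b arrays without overlap, and the gap was wider on the second chip (-1.01) than on the first (-0.29). The difference was -0.65 (SE 0.35, 95% confidence interval -1.39 to 0.09, unadjusted p = 0.0801, adjusted p = 0.999). Without siBAF60c replicate 2 the difference shrank to -0.34. The third paralog, Smarcd1 (chr15:99702287-99713995), was detected on 0 of the 12 arrays, so it gave no level here.

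Of the 27 BAF and PBAF subunits on the list 23 were tested. Leaving out Smarcd2 and Smarcd3, 11 of 21 stood above 0 and 10 below, the median was 0.03 against -0.00407 over all genes, and the arrays did not overlap in 9 (42.9%, against 35.7% of all genes). None of the 21 had an unadjusted p under 0.05 (4.97% of all genes). The BRG1 gene Smarca4 read 7.53 and 6.97 in siBAF60c and 7.78 and 6.84 in siBAF60b, with a difference of -0.06 and overlapping arrays. The BRM gene Smarca2 differed by 0.12 on its bright probe and by -0.58 on a dim second probe, so its direction depends on the probe. The scaffold subunits Smarcc1 and Smarcc2 differed by -0.60 and 0.48, each with non-overlapping arrays and an adjusted p of 0.999. The difference of Smarcc1 was thus about as large as that of the targeted Smarcd3.

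**Figure D2:**
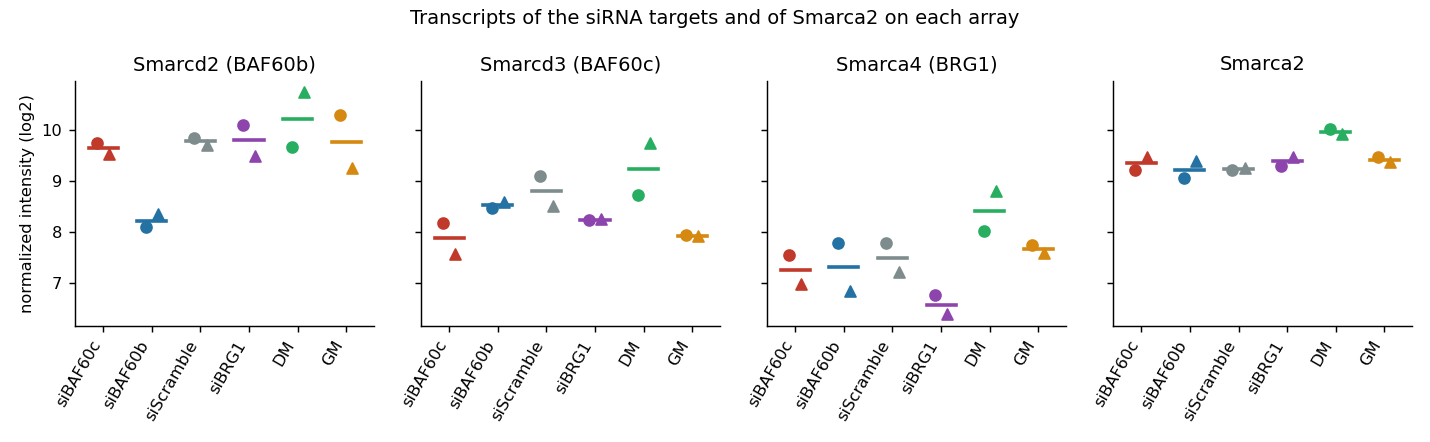
Normalized log2 intensity of the BAF60b, BAF60c and BRG1 genes and of Smarca2 on all 12 arrays, with circles for replicate 1, triangles for replicate 2 and a line at each group's mean of 2 arrays. Smarcd2 is lowest in siBAF60b (8.10 and 8.34), and the 2 siBAF60c arrays of Smarcd3 (8.18 and 7.56) differ from each other by more than the 2 siBAF60b arrays.

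Among the genes that stood lower in siBAF60c, Dpt and Car3 had the largest fitted differences. Dpt encodes dermatopontin, a small matrix protein that binds decorin and collagen. It read 5.04 and 4.80 in siBAF60c, not detected on either array, 7.68 and 7.27 in siBAF60b, and 6.58 and 5.59 in siScramble. Its level was at least 4.17-fold lower in siBAF60c than in siBAF60b (difference in fitted log2 values -2.56, SE 0.36, adjusted p = 0.0508). The siScramble arrays lay between the knockdowns. Car3, the carbonic anhydrase of skeletal muscle and fat, read 6.63 and 6.73 in siBAF60c, 8.88 and 8.88 in siBAF60b, and 8.71 and 9.04 in siScramble. The siBAF60b arrays lay at the level of siScramble and the siBAF60c arrays about 2.20 below both (difference -2.20, SE 0.78, adjusted p = 0.778). The SE of Car3, pooled over all 6 groups, was the widest of the 30 leading genes, and with the 8 transfected arrays alone its adjusted p was 0.0143. With the BeadChip as a block in those 8 arrays, a fit chosen after seeing the data, the adjusted p was 0.0762. Without background correction the difference was -1.33, and with the authors' values -1.41.

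A set of the lower genes handles fatty acids and mitochondria. Lpl, the lipase that frees fatty acids from circulating triglyceride, read 6.79 and 7.59 in siBAF60c against 8.69 and 9.11 in siBAF60b (difference -1.71, SE 0.30, adjusted p = 0.0731). Its siScramble arrays, at 7.67 and 7.94, were above siBAF60c and below siBAF60b. Fabp3, the fatty acid carrier of heart and muscle, read 6.56 and 6.13 against 7.92 and 7.86 (difference -1.54, adjusted p = 0.252). The fatty acid transporter Slc27a1 differed by -1.35 (adjusted p = 0.778) and was detected on only 1 siBAF60c array. Chchd10, a protein of the mitochondrial intermembrane space, read 9.67 and 9.72 in siBAF60c, 10.97 and 11.04 in siBAF60b, and 10.89 and 10.81 in siScramble. This gene resembled Car3 in that siBAF60b lay at the level of siScramble (difference -1.30, SE 0.26, adjusted p = 0.167). This grouping was made after the values were seen and was given no test.

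The other 9 genes of the lower set had varied roles. Kcnk13, a potassium channel, read 5.22 and 5.48 in siBAF60c, 6.74 and 6.84 in siBAF60b, and 7.45 and 6.90 in siScramble (difference -1.44, adjusted p = 0.192). Cbln1, a synapse-organising secreted protein, read 6.82 and 6.14 in siBAF60c against 7.88 and 7.78 in siBAF60b (-1.35, adjusted p = 0.178). Plac1, first known from placenta, read 5.60 and 5.89 against 6.95 and 7.19 (-1.33, adjusted p = 0.192). In each the 2 knockdowns did not overlap, which the naming rule required. Cpa1 (-1.42), Prr7 (-1.36), Ecrg4 (-1.31) and the endocytic receptor gene Lrp1 (-1.31) were detected on 1 siBAF60c array, as was Kcnk13. Tstd2 and Cplx1, a regulator of vesicle fusion, were detected on neither siBAF60c array and were at least 1.95-fold and at least 1.81-fold lower. The next difference outside this set was -1.25. Over the 15 lower genes the SE ran from 0.262 to 0.776 and the adjusted p from 0.0508 to 0.778, and the siScramble mean lay between the knockdown means in 12.

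Among the genes that stood higher in siBAF60c, the signalling genes Ccn2, Atf3, Dusp8 and Ccnd1 belonged to growth factor or stress responses. Ccn2, a secreted matrix-signalling protein induced by YAP, SRF and TGF-beta signalling, read 9.32 and 9.71 in siBAF60c, 7.71 and 7.98 in siBAF60b, and 9.37 and 9.39 in siScramble. Here siBAF60c lay at the level of siScramble and siBAF60b below both (difference 1.67, SE 0.28, adjusted p = 0.0636, second probe 1.58). Atf3, a stress and serum inducible transcription factor, read 7.16 and 7.58 in siBAF60c, 5.65 and 5.66 in siBAF60b, and 6.62 and 6.54 in siScramble. Its siScramble arrays lay between the knockdowns (difference 1.71, SE 0.31, adjusted p = 0.0764). Dusp8, a phosphatase that inactivates stress-activated kinases, read 7.33 and 7.01 against 5.59 and 5.69 (1.53, adjusted p = 0.195), but a dim second probe differed by only 0.18. The D-type cyclin Ccnd1 read 11.88 and 11.89 in siBAF60c, 10.67 and 10.65 in siBAF60b, and 10.66 and 11.01 in siScramble. The 2 arrays of each knockdown were nearly equal, and siBAF60c stood above both other groups (difference 1.23, SE 0.27, adjusted p = 0.195).

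Several genes of the higher set are best known from other lineages, a grouping made after the values were seen and given no test. Bglap2, an osteocalcin gene of bone, read 7.85 and 8.48 in siBAF60c, 6.41 and 6.26 in siBAF60b, and 6.59 and 6.79 in siScramble (difference 1.83, SE 0.33, adjusted p = 0.0764). It was the largest difference of the higher set, and the near-identical paralog Bglap was not detected on any of the 4 arrays. Probes of such close copies may read more than 1 gene. Nefm, a neurofilament subunit, read 6.95 and 6.37 in siBAF60c and was not detected in siBAF60b (4.86 and 4.85) or siScramble (4.59 and 5.13). It was at least 2.50-fold higher in siBAF60c than in siBAF60b (adjusted p = 0.0645), and a second probe differed by 1.37. Hba-a1, an alpha-globin gene with a near-identical copy, read 11.37 and 11.11 in siBAF60c, 9.80 and 9.68 in siBAF60b, and 9.05 and 9.25 in siScramble. Both knockdowns stood above siScramble and siBAF60c stood higher (difference 1.50, SE 0.27, adjusted p = 0.0764). Krt19, an epithelial keratin, read 6.66 and 6.65 against 4.62 and 5.54, with detection on 1 siBAF60b array (1.58, adjusted p = 0.275). Alox5, the leukotriene-forming lipoxygenase of leukocytes, read 9.21 and 8.43 against 7.35 and 6.94 (1.67, adjusted p = 0.192), and its 2 other probes differed by 1.39 and 0.97.

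The remaining genes of the higher set had mixed roles. Msc encodes musculin, a bHLH repressor that competes with MyoD, and read 9.26 and 8.88 in siBAF60c, 7.57 and 7.36 in siBAF60b, and 8.43 and 7.95 in siScramble (difference 1.60, SE 0.33, adjusted p = 0.184). The calcium-binding protein gene S100a3 read 7.01 and 6.90 against 4.85 and 5.49, with detection on 1 siBAF60b array (1.78, adjusted p = 0.0508). Osbp2, a sterol-binding protein gene, read 6.64 and 7.04 in siBAF60c and was detected on neither siBAF60b array, so that it was at least 2.83-fold higher (adjusted p = 0.0636). Igsf5, a junctional adhesion molecule, differed by 1.73 (adjusted p = 0.0508), whereas its other, dim probe differed by -0.10. On the brightest probe siBAF60b read 4.82 and 5.02, below the lowest detected levels of those arrays (5.44 and 5.23). The detection of Igsf5 on 1 siBAF60b array thus came from another probe, and the 1.73 rests on values below detection. The phosphodiesterase gene Gdpd5 read 7.90 and 7.34 against 6.12 and 6.09, with siScramble at 7.46 and 7.40 (1.52, adjusted p = 0.252). The H2A histone genes H2ac18 and H2ac19, whose sequences are nearly the same, differed by 1.70 (adjusted p = 0.0923) and 1.49 (adjusted p = 0.411). Over the 15 higher genes the SE ran from 0.265 to 0.414, and the siScramble mean lay between the knockdown means in 14. The siScramble mean was nearer to siBAF60b in 9 of the 15 higher genes and in 8 of the 15 lower genes.

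**Figure D3:**
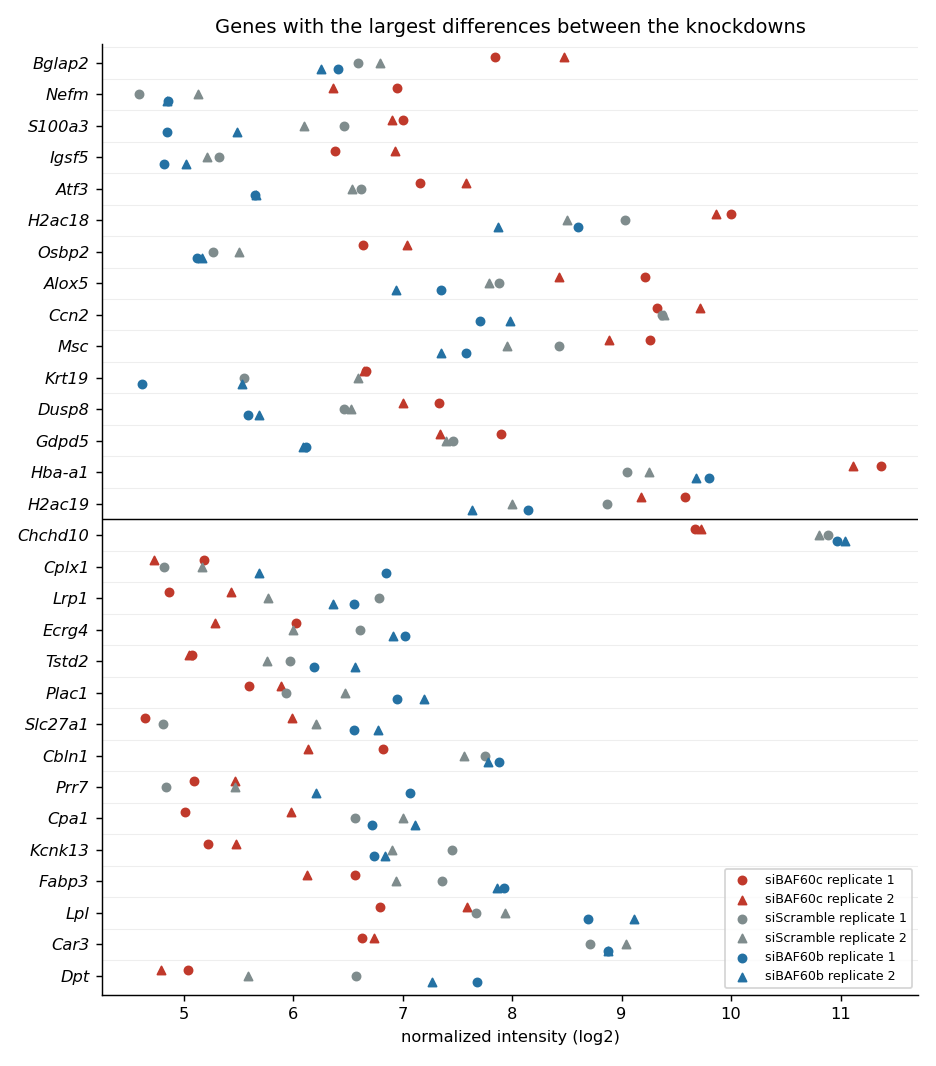
Normalized log2 intensity of the 15 genes that stood highest in siBAF60c relative to siBAF60b (above the line) and the 15 that stood lowest (below it), on the siBAF60c (red), siBAF60b (blue) and siScramble (grey) arrays, with circles for replicate 1 and triangles for replicate 2. Grey points lie at or near blue for Car3, Chchd10 and Nefm and with red for Ccn2 and Gdpd5, and lie between the 2 colours for Atf3.

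The start-site regions of 2 leading genes are printed because MyoD, a partner of BAF60c, binds E-boxes. Dpt had the largest fitted difference, which is only a bound of at least 4.17-fold since it was not detected in siBAF60c, and Atf3 is the highest of the serum response list. The sequences are RefSeq promoters of GRCm38.p6, 250 bases before the start site and 50 from it on, with E-boxes (CANNTG, the same on both strands) in capitals.
Dpt (chr1:164796413-164796712, + strand): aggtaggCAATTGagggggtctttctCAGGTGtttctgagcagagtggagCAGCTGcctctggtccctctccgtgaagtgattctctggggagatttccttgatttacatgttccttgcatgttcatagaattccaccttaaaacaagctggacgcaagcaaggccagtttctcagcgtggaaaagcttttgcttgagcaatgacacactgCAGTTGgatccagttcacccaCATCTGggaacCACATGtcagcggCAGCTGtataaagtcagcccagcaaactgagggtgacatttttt
Atf3 (chr1:191183284-191183583, - strand): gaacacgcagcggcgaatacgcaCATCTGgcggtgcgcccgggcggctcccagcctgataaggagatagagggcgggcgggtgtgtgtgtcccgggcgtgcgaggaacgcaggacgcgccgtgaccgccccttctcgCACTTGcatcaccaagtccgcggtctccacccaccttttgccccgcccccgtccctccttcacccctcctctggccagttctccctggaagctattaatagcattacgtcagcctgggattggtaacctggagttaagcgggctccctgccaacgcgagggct
The Dpt window held 7 E-boxes and the Atf3 window held 2. The table of promoters matched 20 of the 30 leading genes. An E-box stood in 7 of 8 matched higher genes (87.5%) and in 8 of 12 matched lower genes (66.7%), beside 63.6% of 8397 promoters of tested genes. The AP-1 motif TGANTCA, searched on both strands, stood in 0 of 8 and 0 of 12, beside 5.17% of tested genes. The cAMP response element TGACGTCA, the same on both strands, stood in 1 of 8 and 0 of 12, beside 3.24%. A match to such short letters is a description and not a binding site.

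Serum response immediate early genes, which growth factors switch on within minutes, stood higher in siBAF60c almost throughout. Of 29 on the list 22 were tested, 21 had a difference above 0 (49.5% of all genes did), and 6 had an unadjusted p under 0.05, all higher (2.52% of all genes). The list median was 0.41, at 0.41 on the first chip and 0.49 on the second, against -0.00407 over all genes. Against siScramble the list median was 0.22 in siBAF60c and -0.28 in siBAF60b. These values share the siScramble arrays. No member passed the adjusted p.

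Klf4, a zinc-finger transcription factor, read 8.98 and 8.95 in siBAF60c against 7.63 and 8.09 in siBAF60b (difference 1.10, SE 0.37, adjusted p = 0.714). Dusp1 and Dusp6, phosphatases that switch off MAP kinases, differed by 0.82 (10.35 and 10.39 against 9.63 and 9.48) and 0.79 (11.28 and 11.14 against 10.54 and 10.30). The remaining 2 members with an unadjusted p under 0.05 were Dusp4 (0.91) and Errfi1 (0.82), a feedback inhibitor of the EGF receptor. Without siBAF60c replicate 2 these differed by 0.43 and 0.48. Fos was the exception, at 8.23 and 8.21 in siBAF60c and 8.54 and 8.92 in siBAF60b (-0.51, adjusted p = 0.997). In siScramble Fos stood higher than in both knockdowns, at 10.09 and 9.80. Dusp4, Errfi1 and Fos were named after their values were seen.

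Other growth-related lists were mixed. Among 14 tested G1 cyclins, their kinases and E2F factors, 8 stood above 0 and 6 below with a median of 0.14, and 2, Ccnd1 and Ccnd2, had an unadjusted p under 0.05, both higher (2.52% of all genes). Ccnd2 read 6.31 and 6.73 in siBAF60c against 5.61 and 5.65 in siBAF60b (0.89, adjusted p = 0.667), but its second, dim probe differed by -0.02. DNA replication genes had a median of -0.10 (14 above and 24 below 0 of 38) and mitosis genes -0.23 (7 above and 18 below of 25). Neither list had a member with an unadjusted p under 0.05. Cdkn1c, a cell cycle inhibitor of differentiating muscle, read 13.93 and 13.24 against 14.45 and 14.23 (-0.75, adjusted p = 0.938), and Cdkn1a differed by -0.04. The p53-induced cyclin Ccng1 differed by 0.79 (adjusted p = 0.719).

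The unfolded protein response and ATF4 list had no common direction. Of 25 tested genes, 11 stood above 0 and 14 below, with a median of -0.06, and 6 had an unadjusted p under 0.05, all higher in siBAF60c (2.52% of all genes). Trib3, a pseudokinase, read 8.59 and 9.28 against 7.87 and 7.72 (1.14, adjusted p = 0.835, second probe 0.20). Ddit3, the factor CHOP, differed by 0.79 (10.08 and 9.83 against 9.41 and 8.91), and Ppp1r15a, the phosphatase subunit GADD34, by 0.78 (8.23 and 8.46 against 7.66 and 7.47). Chac1, a glutathione-degrading enzyme, differed by 0.73 (10.59 and 10.98 against 10.04 and 10.07). The other two were the amino acid enzymes Shmt2 (0.67) and Asns (0.65), named after their values were seen. These 6 were singled out by their unadjusted p, so that their gap to the other members is fixed by that choice, and none passed the adjusted p.

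Cholesterol biosynthesis stood lower in siBAF60c. Of 18 tested enzymes and regulators 17 had a difference below 0, the arrays did not overlap in 12, all lower (18.0% of all genes), and 2 had an unadjusted p under 0.05 (2.45% of all genes). The median was -0.31, at -0.36 on the first chip and -0.27 on the second. The median against siScramble was -0.08 in siBAF60c and 0.31 in siBAF60b. Dhcr7, which makes the last step to cholesterol, read 5.73 and 6.79 against 6.99 and 7.15 (-0.81, SE 0.36, adjusted p = 0.966), and without siBAF60c replicate 1 it differed by -0.27. Msmo1, a sterol demethylation enzyme, read 8.51 and 8.37 against 8.88 and 9.28 (-0.64, SE 0.30, adjusted p = 0.991). Cyp51 and Tm7sf2, which act next to it, differed by -0.53 and -0.43. The exception was Srebf2, the transcription factor that drives the pathway, at 0.09 and named after its value was seen.

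Oxidative phosphorylation subunits were shifted the same way by less. Of 34 tested, 29 stood below 0 and 12 were lower without overlap (18.0% of all genes), with a median of -0.12 that was -0.13 on the first chip and -0.12 on the second. Cox7a1, the muscle isoform of a cytochrome oxidase subunit, was the only member with an unadjusted p under 0.05, at 8.10 and 7.92 against 8.97 and 8.85 (-0.90, SE 0.36, adjusted p = 0.887). Glutathione and NRF2 genes had a median of -0.19, but -0.24 on the first chip and 0.13 on the second. Their members Nqo1 and Hmox1, antioxidant enzymes, differed by -1.16 (adjusted p = 0.791) and -1.04 (adjusted p = 0.875). Without siBAF60c replicate 1 the value of Nqo1 was -0.54, and without siBAF60c replicate 2 it was -1.77.

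**Figure D4:**
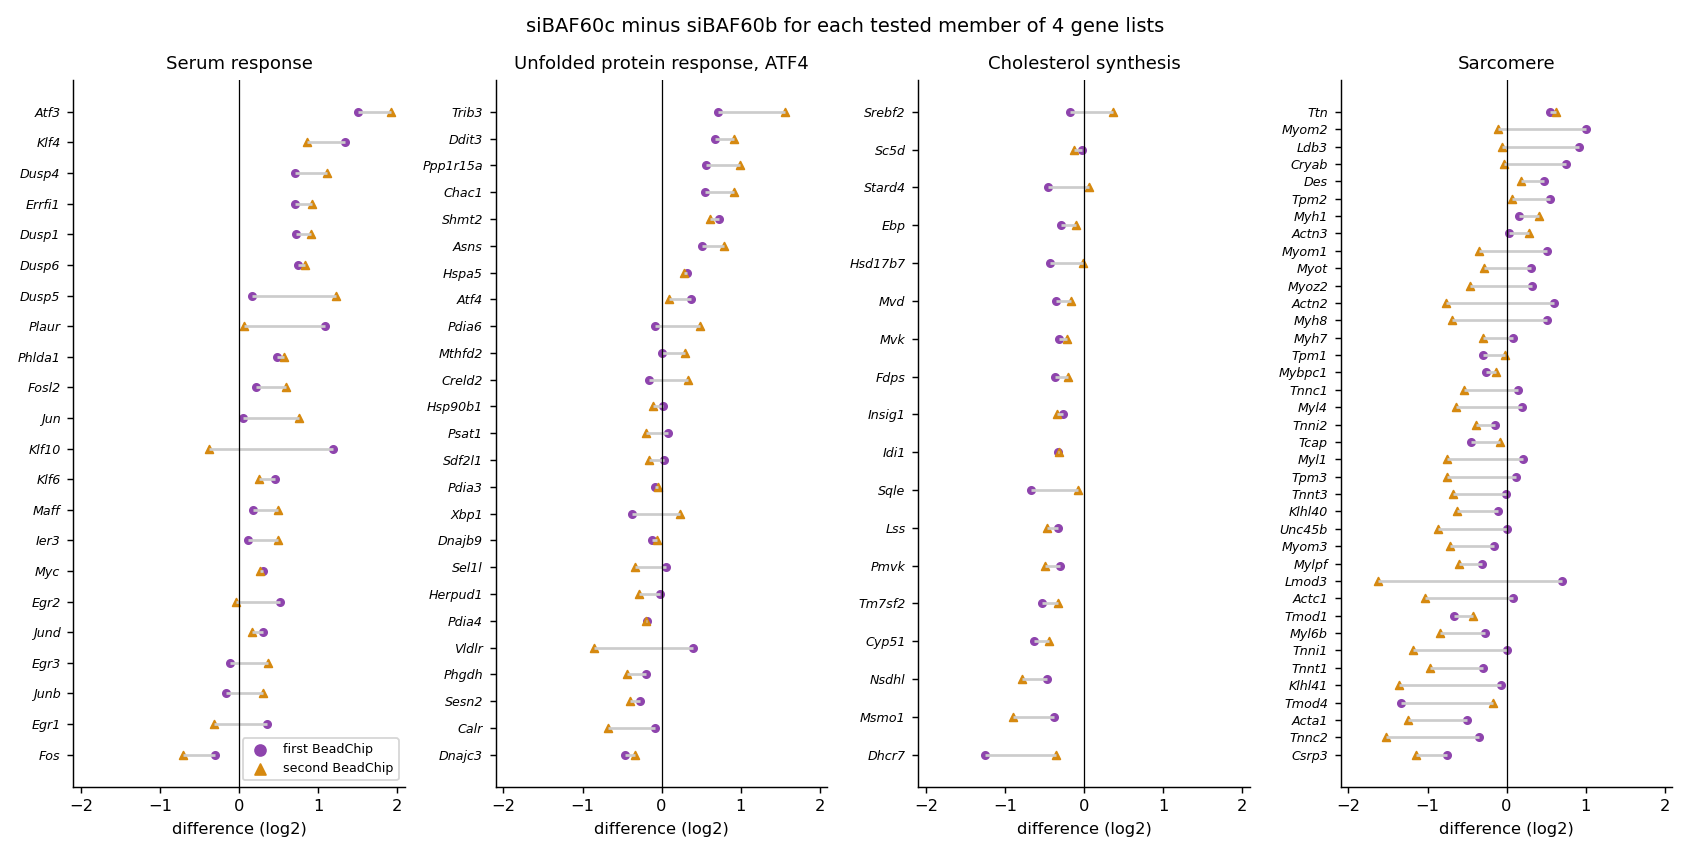
Log2 difference, siBAF60c minus siBAF60b, of each tested member of 4 gene lists on the first BeadChip (circles) and on the second (triangles), ordered within each panel. Of the 22 serum response genes 19 lie to the right of 0 on the first chip and 18 on the second, and of the 18 cholesterol synthesis genes 18 and 16 lie to the left. Of the 38 sarcomere genes 16 lie to the left on the first chip and 33 on the second.

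Muscle differentiation genes did not separate the paralogs in the same way on the 2 chips. Of 38 tested sarcomere genes 28 stood below 0 with a median of -0.26, but the median was 0.06 on the first chip, with 16 below 0, and -0.57 on the second, with 33 below 0. Without siBAF60c replicate 2 the list median turned to 0.22, where the first-chip siBAF60c array stands against siBAF60b arrays of both chips. In this list 3 members had an unadjusted p under 0.05, all lower (2.45% of all genes). They were skeletal actin Acta1, at 12.32 and 11.28 against 12.82 and 12.53 (-0.87, SE 0.34, adjusted p = 0.875), the Z-disc protein Csrp3 (-0.95, other probes -0.25 and 0.06) and the pointed-end capping protein Tmod4 (-0.75, second probe 0.48).

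On their brightest probes the best-known markers showed the same dependence on 1 array. Cardiac actin Actc1, the early actin of differentiating myoblasts, read 13.43 and 11.78 in siBAF60c, 13.35 and 12.81 in siBAF60b, and 13.53 and 13.23 in siScramble (difference -0.47, adjusted p = 0.999). Myogenin, Myog, read 10.76 and 9.02 against 11.09 and 10.20, with siScramble at 11.17 and 10.17 (-0.75, SE 0.52, adjusted p = 0.999). Creatine kinase Ckm read 9.09 and 7.62 against 8.73 and 8.24, with siScramble at 9.74 and 8.89 (-0.13, adjusted p = 0.999). On the brightest probes of all 3 the siBAF60c replicate 2 array was the lowest of the 4 and the groups overlapped. A dim second Myog probe read 5.30 and 5.23 in siBAF60c against 6.90 and 5.62 in siBAF60b (-0.995). There the knockdowns did not overlap, and the gap did not rest on siBAF60c replicate 2. Both siBAF60c values lay below the lowest detected levels of those arrays (5.51 and 5.32). The second Actc1 probe differed by -0.46, with siBAF60c replicate 2 again the lowest. Fast troponin C, Tnnc2, read 13.07 and 11.44 against 13.42 and 12.97 (-0.94, adjusted p = 0.991), fast troponin T, Tnnt3, differed by -0.34, and the fusion protein gene Mymk by 0.03 (9.96 and 8.32 against 9.26 and 8.96). Without siBAF60c replicate 2 the differences were 0.35 for Actc1, 0.12 for Myog, 0.60 for Ckm, 0.22 for Tnnt3, -0.12 for Tnnc2 and -0.35 for Acta1. That fit sets the first-chip siBAF60c array against siBAF60b arrays of both chips, so these values also hold differences between chips. Within the first chip, differences were 0.09 for Actc1, -0.33 for Myog, 0.36 for Ckm, -0.006 for Tnnt3, -0.34 for Tnnc2 and -0.50 for Acta1. The intervals were wide, at -1.36 to 0.42 for Actc1, -1.86 to 0.35 for Myog and -1.05 to 0.79 for Ckm, and thus do not show that the knockdowns act alike.

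The myogenic factor gene Myod1 differed by -0.18 (8.45 and 8.24 against 8.65 and 8.39) and the acetylcholine receptor gene Chrna1 by 0.34 (13.03 and 13.34 against 12.74 and 12.94). Of 9 tested myogenic regulators 2 stood above 0 and 7 below, with a median of -0.27. Myf6, the late myogenic factor MRF4, differed by -0.57 (adjusted p = 0.991), and Mef2c was at least 1.18-fold higher in siBAF60c on one probe (adjusted p = 0.972) and differed by 0.08 on another. Among 19 tested inhibitors of myogenesis 13 stood above 0, 8 were higher without overlap (17.7% of all genes), and 3, Msc, Hey1 and Id1, had an unadjusted p under 0.05, all higher (2.52% of all genes). Hey1, a Notch target repressor, read 10.33 and 10.06 in siBAF60c against 9.06 and 9.52 in siBAF60b (0.91, SE 0.27, adjusted p = 0.488). Id1, Id2 and Id3, which sequester the partners of MyoD, differed by 0.67, 0.25 and 0.58, each without overlap, and the adjusted p was 0.991 for Id1 and 0.999 for both others. Twist2, another bHLH repressor, differed by 0.55 (adjusted p = 0.991). The list median was 0.11, within 0.11 to 0.20 on the 2 chips.

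Contractile genes under SRF split in direction. Of 20 tested 9 stood above 0 and 11 below. The cardiac repeat protein Ankrd1, also a stretch and YAP responsive gene, read 11.97 and 11.76 against 10.84 and 10.25 (1.32, SE 0.30, adjusted p = 0.225), and Fhl1, a LIM protein of muscle, differed by 0.68. The smooth muscle light chain gene Myl9 stood lower, at 9.05 and 9.45 against 10.31 and 10.39 (-1.10, SE 0.35, adjusted p = 0.643). Nppb, the natriuretic peptide gene of the cardiac list, differed by 1.06 with detection on 1 siBAF60b array, and by 0.41 without siBAF60b replicate 1 and 1.71 without siBAF60b replicate 2. Extracellular matrix genes had a median of -0.04, with Thbs2, an anti-angiogenic thrombospondin, at 0.92. Igfbp2, an IGF-binding protein, stood at 10.99 and 10.68 against 9.84 and 9.68 (1.07, adjusted p = 0.778) and the chemokine gene Cxcl12 at 9.05 and 8.80 against 10.11 and 10.23 (-1.24, adjusted p = 0.425), though its 2 other probes differed by only -0.20 and -0.33. In the protein turnover list the lysosomal protease Ctsl differed by 1.18 (adjusted p = 0.225) and the sarcomeric ubiquitin ligase Trim54 by -1.14 (adjusted p = 0.791).

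**Figure D5:**
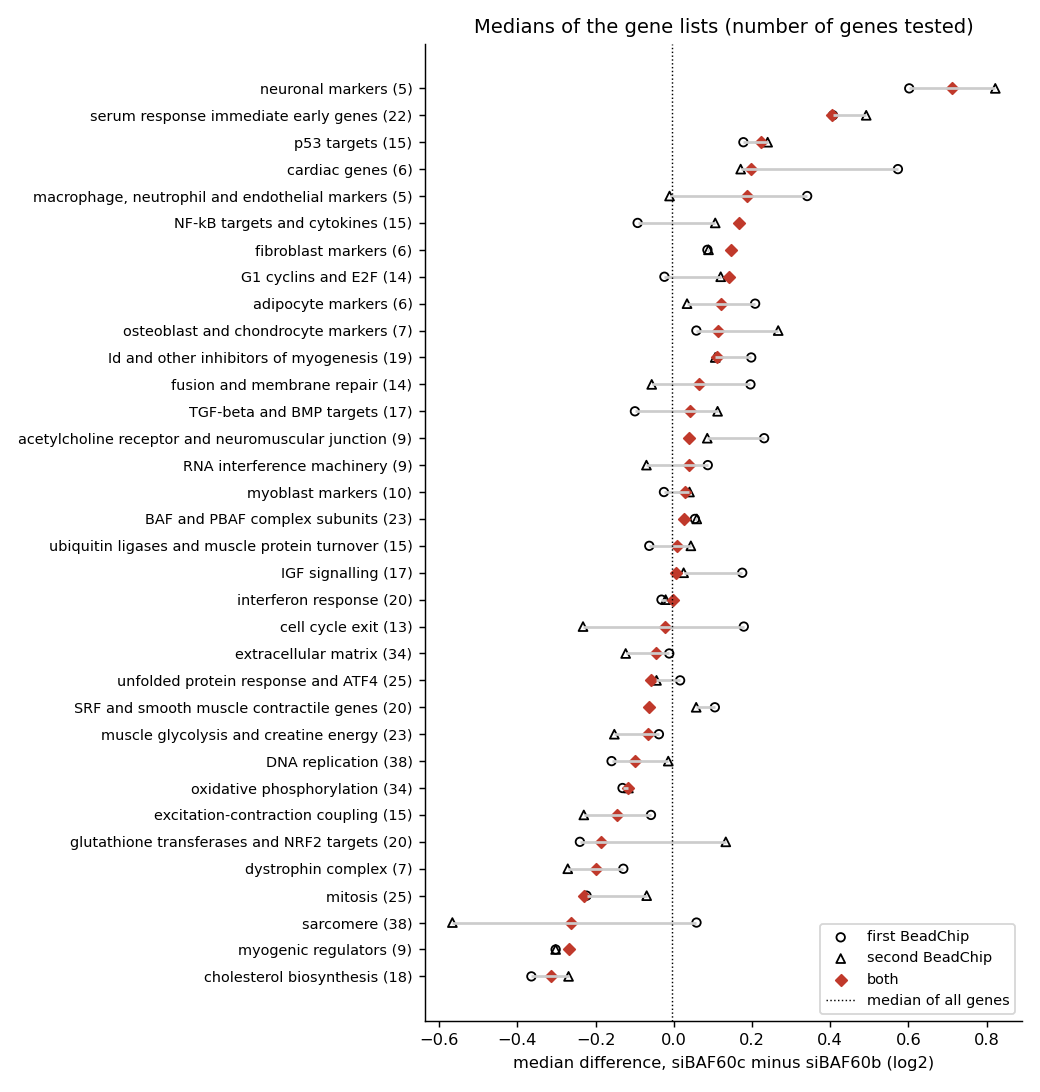
Median log2 difference, siBAF60c minus siBAF60b, of each of 34 gene lists over both BeadChips (red diamonds), on the first (circles) and on the second (triangles), with the number of tested genes in brackets and a dotted line at the median of all genes. Neuronal markers (0.71) and serum response genes (0.41) lie farthest right and cholesterol biosynthesis (-0.31) farthest left, and the sarcomere list has the widest gap between chips (0.06 and -0.57).

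Markers of other cell types were measured because several leading genes belong to them. Nefm, Lpl and Dpt are list members, and the lists were written with earlier results of these data known. Their medians and shares are therefore not independent of the values. In these bulk arrays a change in the share of cells of a type cannot be told apart from a change of RNA per cell. Neuronal markers had the highest list median, 0.71, with all 5 tested members above 0 (49.5% of all genes) and 3 at an unadjusted p under 0.05, all higher (2.52% of all genes). Besides Nefm these were Gap43, a growth cone protein, at 7.85 and 7.78 against 6.20 and 6.59 (1.42, SE 0.32, adjusted p = 0.225), and Stmn2, a tubulin regulator, at 9.53 and 9.96 against 8.93 and 9.14 (0.71). Map2 differed by 0.44 and Syp by only 0.0025, and on the first chip 4 of the 5 stood above 0. The summed signal of the 5 was 1373 and 1561 in siBAF60c, 814.1 and 880.6 in siBAF60b, and 917.7 and 991 in siScramble. Of the 13 neuronal markers on the list 8 were not tested, among them the neurofilament light chain gene Nefl, detected on 0 of the 12 arrays. The part of other cells in these values was not tested.

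Osteoblast and chondrocyte markers had a summed signal of 4798 and 4903 in siBAF60c and 3160 and 3078 in siBAF60b, most of it from the chondrocyte factor Sox9 (12.16 and 12.20 against 11.52 and 11.49, difference 0.67, adjusted p = 0.887). Of their 7 tested members 5 stood above 0 and 2 below, with a median of 0.11. Phospho1, of those below, was detected on neither siBAF60c array and was at least 1.10-fold lower in siBAF60c (adjusted p = 0.991). On each of the 4 arrays 2 or 3 of the 7 were detected. Dpt is also a fibroblast marker and Lpl an adipocyte marker. Fibroblast markers summed to 4400 and 4369 in siBAF60c and 4318 and 4166 in siBAF60b, with a median of 0.15. Of the 6 tested 4 stood above 0, among them Prrx1 (0.56, adjusted p = 0.999). The 2 below were Dpt and the pericyte and fibroblast receptor gene Pdgfrb, which differed by -0.85 (adjusted p = 0.991). Adipocyte markers summed to 1369 and 1560 against 1510 and 1866, and Adipoq was detected on 0 arrays. Of the 6 adipocyte markers tested 4 stood above 0 and 2, Lpl among them, below, with a median of 0.12. Of the blood and vessel markers Adgre1, Lyz2, Mpo and Pecam1 were also detected on 0 arrays, and the 5 tested members summed to 236 and 199.1 against 180.3 and 199.2. Myoblast markers summed to 21140 and 18010 against 18780 and 17250, with a median of 0.03.

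Kept probes without a single gene name were fitted apart. None of 2439 passed the adjusted p in limma, and the lowest adjusted p was 0.231. An unadjusted p under 0.05 was found for 96 (3.94%, beside 4.97% of the genes tested), where 122 would have one if no probe differed. In the same fit 1 gene passed between siBAF60c and siScramble and 1 between siBAF60b and siScramble, and an effect that passes against the control in one knockdown is not shown to differ between them.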

How the data were processed

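Arrays of all 12 samples were used, 2 per group, with groups and replicate numbers taken from the labels. Per the file headers, the deposited scanner table gives, for each of 45281 probes and each array, a signal (linear intensity) with its detection p-value, and the authors' processed table gives linear intensity for 23165 of them, with columns that share their quantiles. The software, version and background setting of the authors are not given in the sources used here. Scanner intensities were corrected for background through the detection p-values, then quantile normalized on a log2 scale (neqc of limma 3.58.1, R 4.3.3, offset 16). A probe was retained if 2 or more arrays had a detection p under 0.05 (17565 probes), of which 15126 were named by 1 gene in the annotation table supplied, and 2439 were not. Genes with several kept probes (3438) were represented by the brightest, which left 10346 genes. The number of arrays limits the precision.

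One limma model (lmFit, eBayes) covered all 12 arrays and 6 groups, with 6 residual and 8.17 prior degrees of freedom, and every adjusted p is from it (Benjamini-Hochberg over all 10346 genes) unless another setting is named. The spread therefore pools all groups. A gene counted as detected on an array if any of its probes was, which need not be the brightest. Where neither array of the lower knockdown detected a gene, its fold is a lower bound, taken against the lowest level at which those arrays detected any probe. Each bound is a point value of this normalization and leaves out the SE. The procedure was also run on data simulated with independent noise on each array and no chip effect. Summed marker signals are sums of normalized values on the linear scale.

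Same-numbered arrays of siBAF60c and siBAF60b share a BeadChip by the array identifiers in the labels, and their deviations from the group means correlated at 0.328. The chip entered the per-chip values and the naming rule, but the reported fit has no term for it. Blocking on it over all 12 arrays also called 0 genes.

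Genes named are the 15 with the largest difference in each direction among those with an unadjusted p under 0.05, non-overlapping arrays, the same sign on both chips and detection on both arrays of the higher group, the BAF60 and ATPase genes, up to 4 members per list with the smallest p, and a short set of differentiation markers. The members and the 34 gene lists were written from general knowledge with earlier results of these data known. Promoters are from RefSeq (GRCm38.p6).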

Additional observations from a re-analysis of the deposited data

How the results depend on the processing

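The comparison was repeated under 17 other settings, 1 of them (the BeadChip as a fixed replicate block with the 8 transfected arrays) chosen after seeing the data. The count of genes called was 0 as reported. It was 3 with the authors' values (2 higher in siBAF60c, Hba-a1 and Ccn2, and 1 lower, Chchd10), 3 with no filter on detection (2 higher, S100a3 and Igsf5, and 1 lower, Dpt), and 3 with an intensity trend and robust eBayes (2 higher, Ccn2 and Igsf5, and 1 lower, Dpt). It was 2 with the 4 arrays compared alone and 2 with the 8 transfected arrays, both lower and both times Dpt and Car3, and 26 with array weights (19 higher and 7 lower), where the untransfected DM arrays weighed 0.327 and the 4 compared arrays 1.01 or 1.39. It stayed at 0 without background correction, with median scaling, with probes detected on at least 4 arrays, with the mean of a gene's probes, under each of the 3 replicate block fits and without any 1 of the 4 arrays (0 to 0). Genes with an unadjusted p under 0.05 numbered 698 (6.75%) with the replicate block over 12 arrays. They numbered 1226 (11.8%) with it over the 4 arrays and 1073 (10.4%) over the 8, against 514 (4.97%) in the fit reported. Pairing left the reported count at 0, but it ended the calls of Dpt and Car3 in the 4-array and 8-array fits, whose lowest adjusted p became 0.0502 and 0.0762. With median scaling the median of all genes shifted to -0.18 and 31 higher and 72 lower genes had such a p. Leaving out 1 array gave 299 (siBAF60b replicate 1) to 732 (siBAF60c replicate 2). Of 1596 values for the 94 genes named, 1541 kept their direction and side of the threshold, 35 passed in addition and 20 changed sign, in 9 genes. Smarca2 was -0.13 with median scaling and -0.23 with the mean of probes, Mymk -0.23 and -0.016, Srebf2 -0.15 with median scaling, and Cdkn1a 0.13 with the mean of probes. Leaving out 1 array moved Smarca2 between -0.040 and 0.28, Mymk -0.78 and 0.85, Srebf2 -0.17 and 0.35, Cdkn1a -0.19 and 0.11, Smarca4 -0.53 and 0.41, Actc1 -1.30 and 0.35, Ckm -0.87 and 0.60, Tnnt3 -0.90 and 0.22, and Myog -1.63 and 0.12. Leaving out 1 array moved 36 of the 94 genes by over 1.5 times and the other 58 by less. It also leaves the chips unbalanced between the knockdowns. The cause was not tested. The medians of 11 of 34 lists kept their sign under all 17 settings, among them serum response (0.205 to 0.525), neuronal markers (0.457 to 1.06) and cholesterol biosynthesis (-0.579 to -0.233), while the sarcomere median ran from -0.73 to 0.224. Genes near background give only bounds.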
